A study of Homo sapiens with 24 samples.

Results

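TXNIP, its relatives among the alpha-arrestins (ARRDC1, ARRDC2, ARRDC3 and ARRDC4) and the transcription factors MLXIP (MondoA) and MLX were followed through RNA-seq libraries of SW1783 cells treated with extracts of Schisandrae Fructus. The 7 genes were taken as the rows of the count table whose Ensembl identifiers map to these symbols, 7 of 60675 rows and of 19586 protein-coding genes. TXNIP was chosen by its log2 fold change, the largest rise at the high dose of either extract, and the other 6 were listed as its family and its regulators with earlier results of these data known. Their high-dose changes are therefore given as a description, with no test. At the medium and low doses, between the vehicles and between the extracts the genes were tested.

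TXNIP encodes thioredoxin-interacting protein, which binds thioredoxin and restrains glucose uptake by driving glucose transporters off the cell surface. Like the other alpha-arrestins it carries arrestin folds and, in most members, PPxY motifs that recruit ubiquitin ligases of the NEDD4 family. MondoA, encoded by MLXIP, sits at the outer mitochondrial membrane and moves to the nucleus with its partner MLX when hexose phosphates accumulate. The pair then binds carbohydrate response elements, and TXNIP and ARRDC4 are its best known targets.

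SW1783 is a human astrocytoma cell line, here kept in Leibovitz's L-15 medium, in which galactose replaces glucose. Cells received WESF, the hot water extract, at 20, 100 or 500 µg/mL (low, medium and high dose), EESF, the ethanol extract, at 12.4, 62 or 310 µg/mL, or vehicle, PBS with 0.1% DMSO, for 24 h. Batch A of the labels holds WESF and its vehicle (vehicle A), and batch B holds EESF and its own (vehicle B), so that extract and batch cannot be told apart. Each of the 8 groups holds 3 libraries, 24 in all, with totals between 18727797 and 32567395 expected counts. All libraries come from 1 cell line, and no label says that replicates were separate cultures, so that p-values measure the spread between these libraries, which may be technical. The study chose the high doses in a cytotoxicity screen, in which that of WESF showed no toxicity and that of EESF was partly toxic. In bulk RNA, fewer cells of a kind and less RNA per cell cannot be told apart.

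The label of the cells was checked against marker genes. In vehicle A, counts scaled to library size (CPM, per 1e+06 counts in protein-coding genes) were 4821 for VIM, 2836 for CD44, 81.7 for SOX9 and 31.8 for SLC1A3, 4 genes that astrocytes share with other cell types. At the high doses SLC1A3 stood at 10.4 CPM with WESF and 12.1 with EESF, SOX9 at 50.7 and 48.7 and CD44 at 1722 and 2077, all below their vehicles, and VIM at 4796 and 5279. The defining astrocyte markers were close to absent. The median over the 24 libraries was 4.03 expected counts for GFAP, 1.5 for S100B, 0.5 for ALDH1L1 and 0 for AQP4 and SOX2. GFAP was higher at the high doses, from 0.149 to 0.268 CPM with WESF and from 0.0358 to 0.289 with EESF. So was OLIG2, with at most 16 expected counts in a library, from 0.0501 to 0.472 and from 0.0716 to 0.34 CPM. NES of the same list fell from 7.29 to 3.17 and from 6.74 to 4.93 CPM. The fibroblast genes COL1A1 and COL1A2 stood at 3797 and 1817 CPM in vehicle A, and PDGFRB, the third of that list, at 76.3. With the high dose of WESF COL1A1 fell to 2940 and PDGFRB to 43.8 CPM, while COL1A2 rose to 2121. With that of EESF COL1A1 fell from 3798 to 3403 and PDGFRB from 75.2 to 45.3 CPM, and COL1A2 held 1790 and 1888 (edgeR, adjusted p = 0.176). The summed CPM of the 4 neuronal markers, led by TUBB3, fell between 156.3 and 160.2 in the libraries of vehicle A and between 76.96 and 85.2 at the high dose of WESF, and between 156.1 and 165.5 in vehicle B and between 98.19 and 107.1 at the high dose of EESF. RBFOX3, a defining neuronal marker, had at most 21 expected counts in a library and went the other way, from 0.112 to 0.709 CPM with WESF and from 0.138 to 0.563 with EESF. The part of these markers in the results was not tested.

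TXNIP (ENSG00000265972) lies on the minus strand of chromosome 1 of GRCh38, from 145992435 to 145996579. ARRDC4 (ENSG00000140450) lies on the plus strand of chromosome 15 from 97960703 to 97973833. On the plus strand also lie ARRDC1 (ENSG00000197070, chromosome 9, 137605685 to 137615360), ARRDC2 (ENSG00000105643, chromosome 19, 18001132 to 18014102), MLXIP (ENSG00000175727, chromosome 12, 122078756 to 122147344) and MLX (ENSG00000108788, chromosome 17, 42567072 to 42573239). ARRDC3 (ENSG00000113369) lies on the minus strand of chromosome 5 from 91368631 to 91383317. The 250 bases before the first listed RefSeq start of each gene, which were searched for the sites that MondoA and its helper NF-Y are known to bind, are shown 5′ to 3′ on the strand of the gene, as RefSeq gives them for GRCh38.p14. They span chr1:145996580-145996829 for TXNIP and chr15:97960453-97960702 for ARRDC4. Capitals mark matches, on either strand, to the E-box CACGTG, to the hexamer CACGNG (which includes the E-box) and to the box CCAAT.
TXNIP promoter: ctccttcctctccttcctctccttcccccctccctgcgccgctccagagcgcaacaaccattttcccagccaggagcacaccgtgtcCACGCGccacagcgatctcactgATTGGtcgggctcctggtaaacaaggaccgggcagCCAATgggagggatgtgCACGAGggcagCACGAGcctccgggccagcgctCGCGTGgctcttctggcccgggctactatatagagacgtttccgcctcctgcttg
ARRDC4 promoter: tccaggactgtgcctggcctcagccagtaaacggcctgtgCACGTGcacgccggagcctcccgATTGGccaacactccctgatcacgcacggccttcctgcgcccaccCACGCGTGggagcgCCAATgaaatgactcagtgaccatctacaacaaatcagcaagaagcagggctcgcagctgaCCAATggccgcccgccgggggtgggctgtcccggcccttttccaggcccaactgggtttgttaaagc

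In this TXNIP promoter a pair of CACGNG hexamers stood 5 bases apart, at positions -88 to -72 from the start, in the spacing of a carbohydrate response element. Such a pair was found in 23 of 35116 RefSeq promoter windows of the same length (0.0655%). CCAAT boxes lay at positions -140 to -136 and -105 to -101. The ARRDC4 promoter held an E-box at -210 to -205, 2 overlapping hexamers that began at -142 and -140, and 3 CCAAT boxes, but no pair with that spacing. Among the other members, the letters of an E-box were found in the MLX promoter, at -50 to -45. ARRDC2 had 3 CACGNG hexamers, and the first listed promoters of ARRDC1, ARRDC3 and MLXIP held a CCAAT box and no hexamer. RefSeq lists a second start for 3 of the members, and the window before it, chr1:145995745-145995994 for TXNIP, held 0 matches to any of these motifs in TXNIP, a CCAAT box and 0 hexamers in ARRDC2, and 1 hexamer and 0 CCAAT boxes in ARRDC3. Over all windows, 6.34% held an E-box, 26.7% a CACGNG hexamer and 32.0% a CCAAT box, so that a match to any of these alone is common. A match describes the sequence and does not show a bound site.

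**Figure D1:**
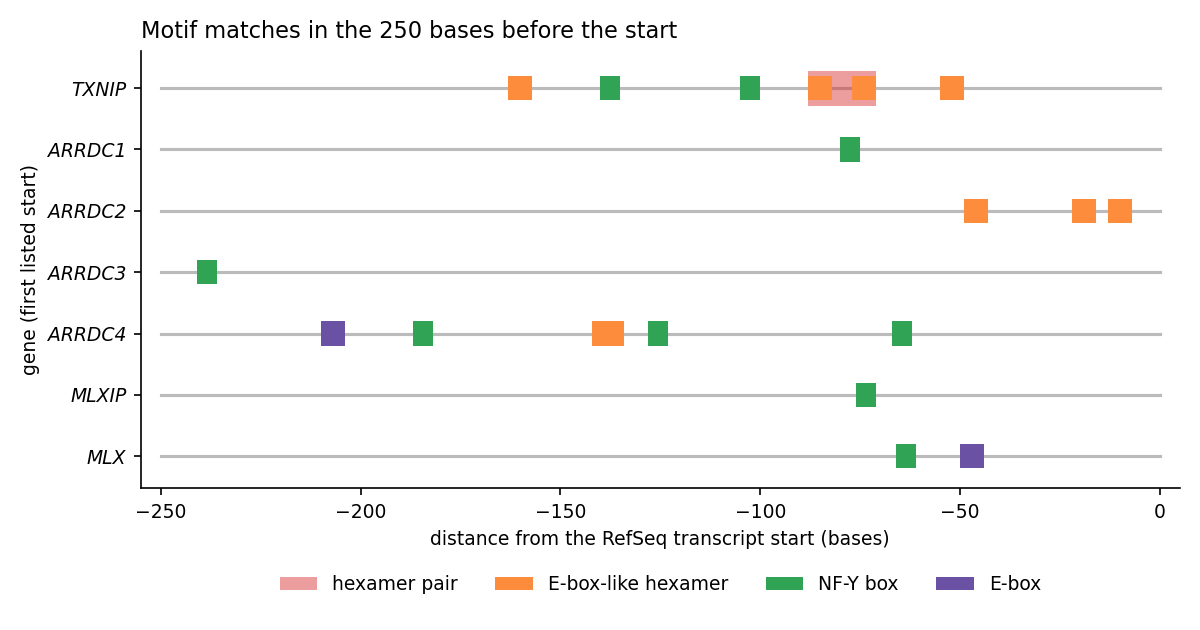
Matches to the motifs in the 250 bases before the first listed RefSeq start of each of the 7 genes, with the distance from the start in bases on the x axis. Coloured blocks are matches on either strand, and the broad pale block in TXNIP is the pair of hexamers at -88 to -72, which the other 6 windows lack.

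Without extract TXNIP was a gene of modest level. Scaled by the length of its exons, it stood at 2.82 ± 0.0792 CPM per kb (SD, n = 3) in vehicle A and ranked 8398 of 13516 protein-coding genes. ARRDC4 was lower, at 1.34 ± 0.25 CPM per kb, and ARRDC2 stood at 1.70 ± 0.235. The most abundant members per length were ARRDC3, an adaptor in the downregulation of beta-adrenergic receptors, at 16.7 ± 0.549, and MLX at 13.3 ± 0.75. MLXIP at 4.97 ± 0.116 and ARRDC1, which drives the budding of vesicles from the plasma membrane, at 3.92 ± 0.0599 lay between. At the high doses this order was upset, because TXNIP reached 99.6 ± 1.22 CPM per kb with WESF (rank 277) and 83.8 ± 2.55 with EESF (rank 352) and became the most abundant of the 7. With the length of the canonical transcript in place of all exons, MLX at 24.0 CPM per kb stood above ARRDC3 at 19.6 in vehicle A, and ARRDC1 at 9.55 above MLXIP at 8.21, whereas TXNIP stayed first at the high doses with 124 and 104.

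**Figure D2:**
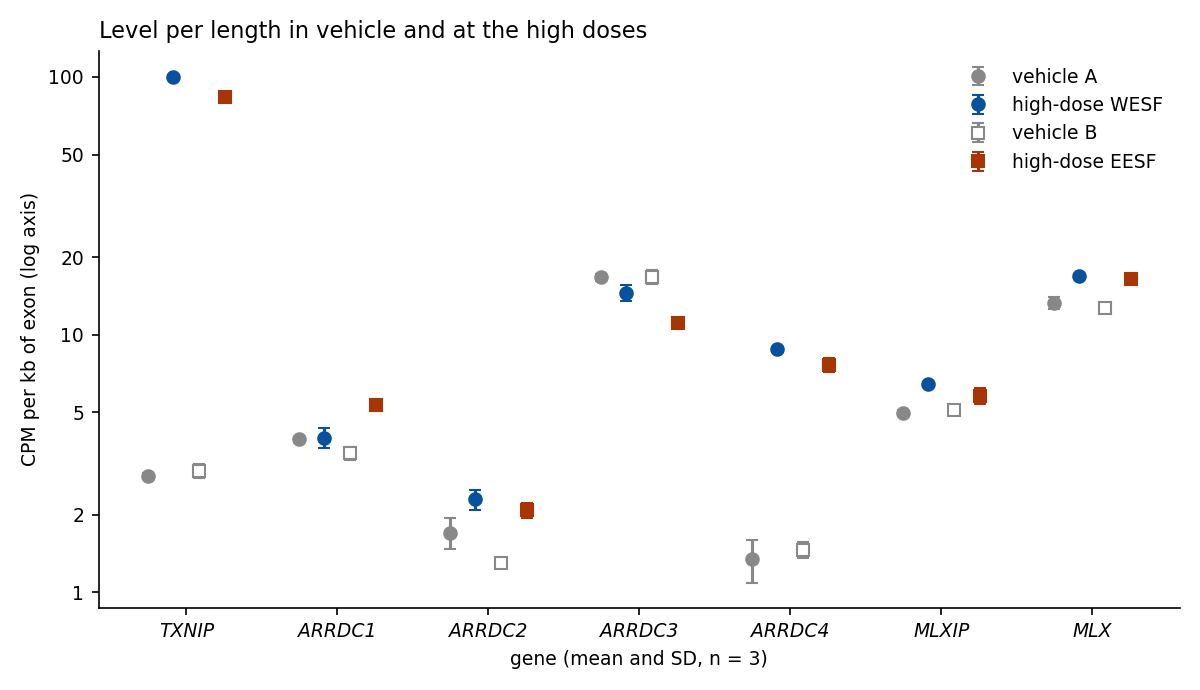
Level per length of the 7 genes (CPM per kb of exon, log axis) in the 2 vehicles and at the high dose of each extract. Points are means and bars SDs over 3 libraries, and TXNIP is the gene that moved from 2.82 to 99.6 and from 2.96 to 83.8.

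The 3 libraries of vehicle A held 10.5, 9.91 and 10.1 CPM of TXNIP. At 500 µg/mL WESF they held 358, 355 and 364 CPM. In batch B the vehicle libraries held 11.2, 10.8 and 9.94 CPM, and those at 310 µg/mL EESF 309.8, 292 and 304 CPM. The groups were thus far apart, and replicates lay close together. The log2 fold change was 5.14 ± 0.054 (SE) with WESF, 35.3-fold, and 4.82 ± 0.066 with EESF, 28.3-fold. The expected counts behind these values were 259 to 284 per library in vehicle A and 7207 to 8446 with WESF, so that depth did not limit them.

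At the medium doses, which the choice of the gene did not use, TXNIP rose with both extracts. At 100 µg/mL WESF the libraries held 23.5, 23.7 and 27.7 CPM, all above vehicle A, and the change was 1.3 ± 0.076 on the log2 scale (2.46-fold, adjusted p = 5.73e-07 by edgeR's quasi-likelihood test over 13112 genes). At 62 µg/mL EESF they held 14.8, 13.4 and 16.1 CPM, again all above their vehicle, with a change of 0.47 ± 0.087 (1.39-fold, adjusted p = 0.00245). These comparisons share their vehicle libraries with the high-dose ones. Both calls held under all 13 alternatives, omission of single libraries included. At the low doses the libraries held 11.1, 9.56 and 11.7 CPM with 20 µg/mL WESF and 9.99, 9.75 and 9.05 CPM with 12.4 µg/mL EESF, which overlap the vehicles. The 95% intervals of the change were -0.11 to 0.27 and -0.33 to 0.02 on the log2 scale. Ordered by level, neighbours among the 2 low doses and the 2 vehicles overlapped, and above them came medium EESF, medium WESF, high EESF and high WESF with no overlap between neighbours.

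**Figure D3:**
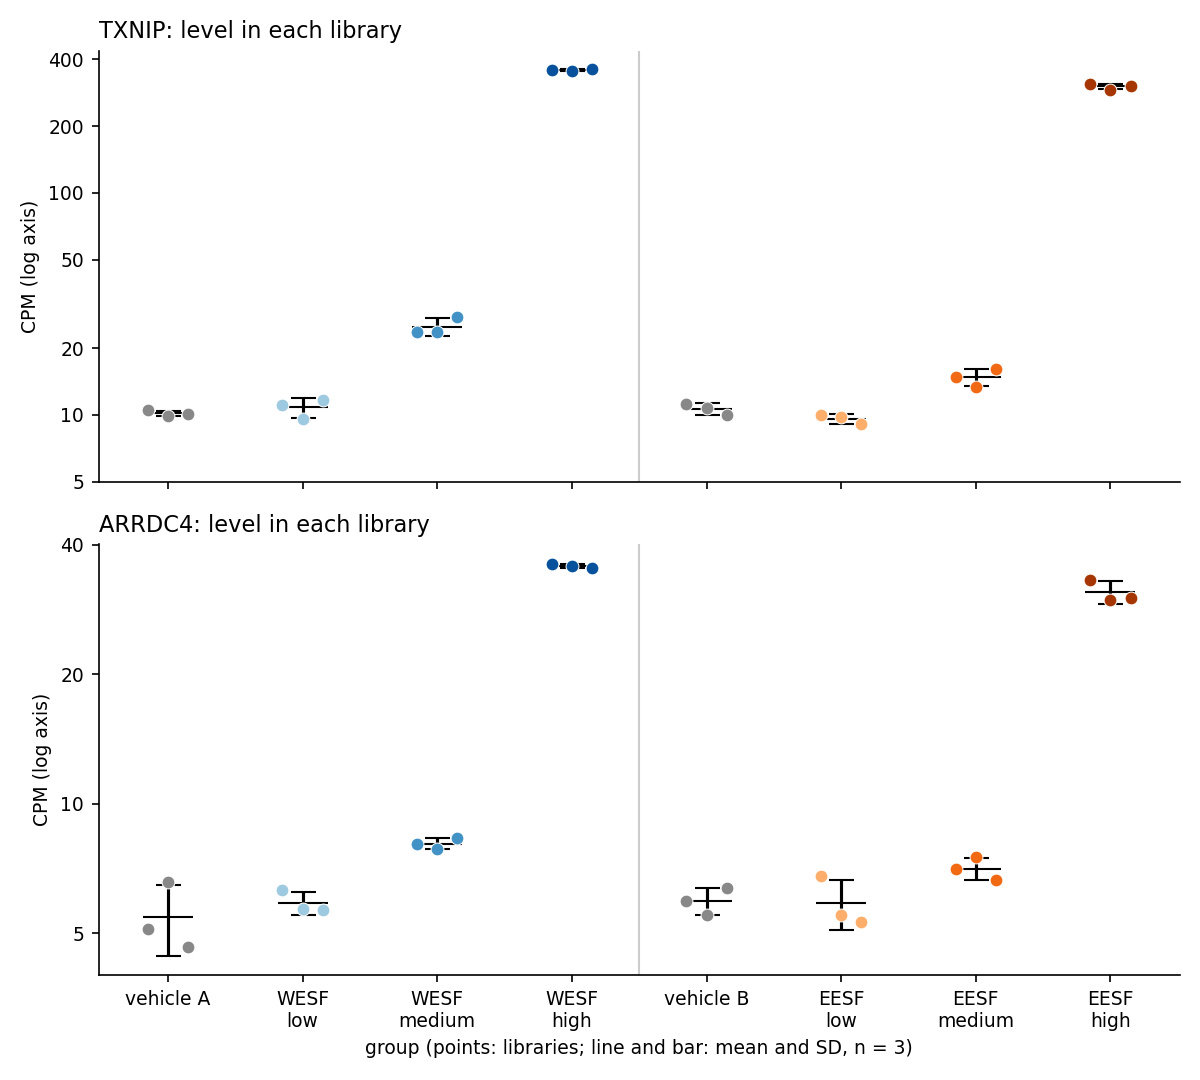
CPM of TXNIP and of ARRDC4 in each of the 24 libraries (log axis), by group. Points are libraries, and lines and bars the mean and SD of 3. TXNIP stands near 10 CPM in the vehicles and low doses and at 292 to 364 CPM in the 6 high-dose libraries. ARRDC4 is also highest in those 6 libraries, at lower values.

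ARRDC4, the closest relative of TXNIP in this set and likewise known to restrain glucose uptake, was also higher at the high doses, by less. Its libraries held 5.12, 6.58 and 4.64 CPM in vehicle A and 36.1, 35.7 and 35.3 CPM at the high dose of WESF. In batch B they held 5.93, 5.53 and 6.36 CPM in the vehicle and 33.19, 29.78 and 30.04 CPM at the high dose of EESF. The groups did not overlap in either batch, and the change was 2.71 ± 0.088 with WESF (6.52-fold) and 2.38 ± 0.084 with EESF (5.22-fold) on the log2 scale. At the medium dose of WESF it rose, with 8.08, 7.84 and 8.33 CPM and a change of 0.56 ± 0.12 (edgeR, adjusted p = 0.0193). This call was lost without vehicle A replicate 3, WESF medium replicate 2 or WESF medium replicate 3, with an adjusted p of up to 0.105 by the same test. At the medium dose of EESF it held 7.05, 7.51 and 6.65 CPM, all above the vehicle, and the change of 0.26 ± 0.10 (edgeR, adjusted p = 0.11) did not pass the test. At the low doses the changes were 0.11 ± 0.13 and -0.02 ± 0.12.

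The other alpha-arrestins differed in direction at the high dose of EESF, with ARRDC1 1.54-fold, ARRDC2 1.59-fold and ARRDC3 0.664-fold the level of the vehicle. ARRDC3 was the member with lower values at the high doses. It went from 80.1, 83.6 and 85.5 CPM in vehicle A to 69.92, 77.96 and 68.68 with WESF, a log2 change of -0.20 ± 0.053, and from 77.8, 84.4 and 88.3 in vehicle B to 57.8, 52.7 and 55.9 with EESF, a change of -0.59 ± 0.062. At the medium dose of WESF ARRDC3 fell by 0.20 ± 0.044 on the log2 scale (edgeR, adjusted p = 0.023), a call that was lost with replicate number as a block (adjusted p = 0.0881) and without vehicle A replicate 2 or 3 or WESF medium replicate 2 or 3 (up to 0.129). At the medium dose of EESF the change was -0.12 ± 0.052 (edgeR, adjusted p = 0.137), with an adjusted p of 0.0147 without vehicle B replicate 1.

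With EESF, ARRDC1 was higher at the medium and high doses. With WESF it had 14.9 ± 0.227 CPM in vehicle A and 15.1 ± 1.39 CPM (SD, n = 3) at the high dose, a log2 change of 0.02 ± 0.075. With EESF its libraries held 19.5, 19.9 and 21.4 CPM at the high dose against 13.8, 13.2 and 12.3 CPM in vehicle B, which did not overlap, a change of 0.63 ± 0.074. It rose at the medium dose of EESF, by 0.36 ± 0.073 (edgeR, adjusted p = 0.0044), a call that held under all 13 alternatives. The antisense gene ARRDC1-AS1 overlaps ARRDC1 by 35 bases. ARRDC2 stood at 7.89 ± 1.09 CPM in vehicle A and 10.6 ± 0.949 at the high dose of WESF, a change of 0.43 ± 0.10, and at 6.05 ± 0.127 and 9.64 ± 0.644 CPM in batch B, a change of 0.67 ± 0.095. At the medium and low doses it passed no test, with changes between -0.18 and 0.17. ARRDC5 and the retinal arrestins SAG and ARR3 were close to 0, with at most 4 expected counts in a library.

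The transcription factors were measured beside their targets. MLXIP stood at 70.6, 67.4 and 68.7 CPM in vehicle A and 89.6, 90.4 and 88.1 at the high dose of WESF, without overlap and with a log2 change of 0.38 ± 0.043. In batch B it held 69.5, 68.2 and 73.9 CPM in the vehicle and 84.6, 81.9 and 73.6 at the high dose of EESF, which overlap, with a change of 0.18 ± 0.063. At the medium and low doses MLXIP passed no test. The changes were -0.01 ± 0.044 and 0.06 ± 0.05 with WESF and -0.10 ± 0.052 and -0.11 ± 0.047 with EESF. Its partner MLX stood at 56.6 ± 3.19 CPM in vehicle A and 71.9 ± 0.455 at the high dose of WESF (0.35 ± 0.048 on the log2 scale), and at 54.1 ± 1.77 CPM in vehicle B and 70.4 ± 2.09 at the high dose of EESF (0.38 ± 0.054). At the medium dose of EESF MLX rose by 0.17 ± 0.054 (edgeR, adjusted p = 0.0453). This call was lost with DESeq2's test or size factors, with all genes of the table and without vehicle B replicate 2 or 3 or EESF medium replicate 1 or 3, with adjusted p-values of up to 0.187 by edgeR. PSMC3IP overlaps MLX by 930 bases on the other strand, and ARRDC3-AS1 overlaps ARRDC3 by 2969. These lengths, and that for ARRDC1-AS1, are of whole genes, introns included. ARRDC3-AS1 held 9 to 36 expected counts per library against 1510 to 2312 for ARRDC3. PSMC3IP held 283 to 550 against 950.5 to 2263 for MLX, and ARRDC1-AS1 318 to 747 against 221 to 643 for ARRDC1. The library kit kept the strand, but the strand setting of the counting is not given in the sources used here, so that reads of overlapping genes may not be told apart.

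With medium WESF, 2 of the 7 genes rose (TXNIP and ARRDC4) and 1 fell (ARRDC3), where 1.89% of all genes tested rose and 2.20% fell by the threshold on the adjusted p, 0.05. With medium EESF 3 rose (TXNIP, ARRDC1 and MLX) and 0 fell, where 6.90% rose and 8.48% fell. The 7 were chosen with earlier results of these data known, so that setting them beside these shares is no test of the set. The calls of ARRDC4, ARRDC3 and MLX were lost under some alternatives, as given above. At the low dose of WESF 0 of the 7 passed, as did 0% of all genes, although 470 of 13131 had an unadjusted p under 0.05 and DESeq2 called 1 of them. At the low dose of EESF 0 passed as well, where 3.11% of all genes rose and 6.24% fell. The member closest to the threshold there was MLX, which went from 56.1, 53.1 and 53.0 CPM to 60.6, 60.9 and 59.1, or 0.15 ± 0.045 on the log2 scale (edgeR, adjusted p = 0.0558), and leaving out vehicle B replicate 1 brought 2 members past the threshold, MLX (adjusted p = 0.016) and ARRDC3 (0.00768). Of the 7, TXNIP passed at the medium dose of both extracts.

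**Figure D4:**
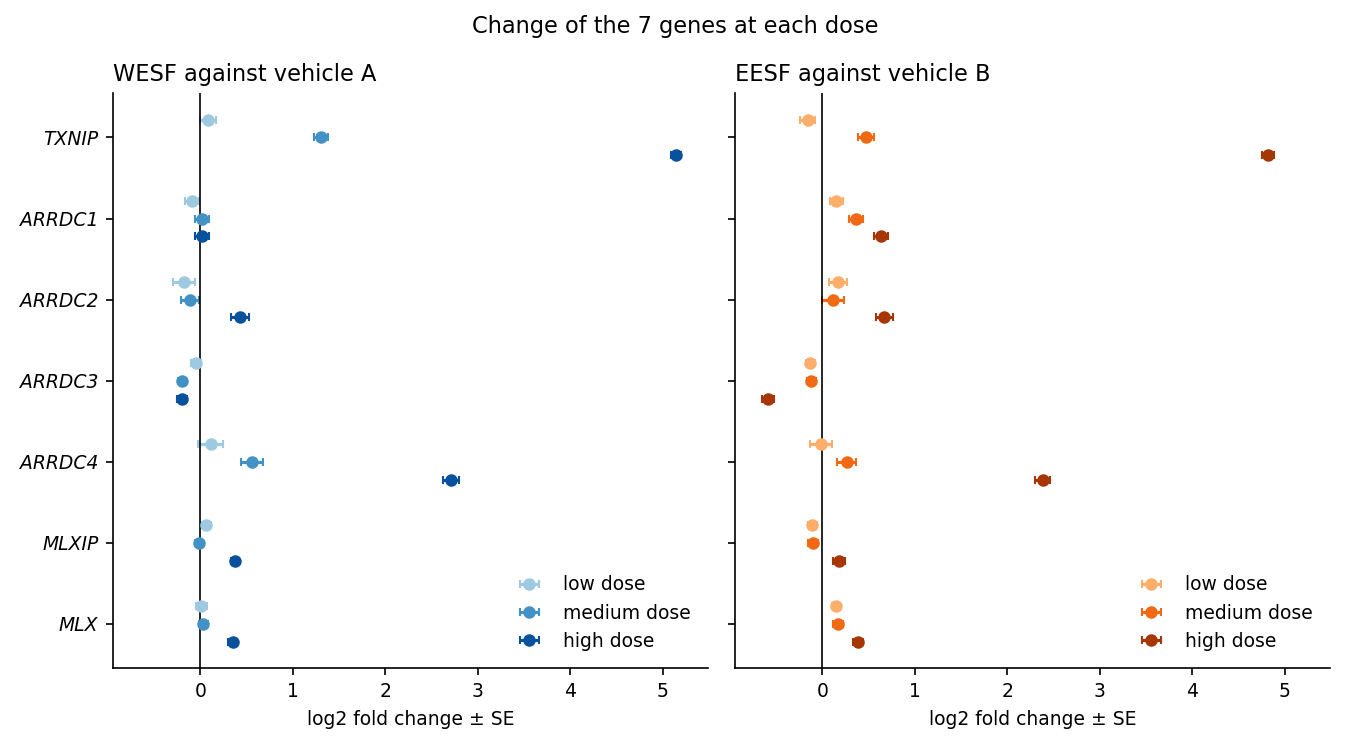
Log2 fold change of the 7 genes against the vehicle of the batch, at the low, medium and high dose of WESF (left) and EESF (right). Points are estimates of edgeR and bars their SE. TXNIP reached 5.14 and 4.82 and ARRDC4 2.71 and 2.38 at the high doses, and the other 5 genes lay between -0.59 and 0.67.

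The extracts were compared by subtracting the change with WESF from the change with EESF in a fit of 12 libraries. The doses differ (62 against 100 µg/mL at the medium and 12.4 against 20 at the low dose), and so do the batches. The change in TXNIP at the medium dose was smaller with EESF, by -0.83 ± 0.12 on the log2 scale (95% interval -1.08 to -0.58, edgeR, adjusted p = 0.00799 over 13276 genes). TXNIP was 1 of 27 genes past the threshold there, 0.203% of those tested. The call was lost with replicate number as a block (adjusted p = 0.0567) and without vehicle B replicate 2 (0.0532), while the size of the difference kept within -0.89 and -0.75 over the alternatives. For ARRDC4 the difference was -0.31 ± 0.16, with an interval from -0.65 to 0.03, and for ARRDC1 it was 0.34 ± 0.099 with an interval from 0.13 to 0.55 (edgeR, adjusted p = 0.169). At the low dose 0 of the 7 passed, where 0.00756% of all genes did. The interval for TXNIP there was -0.47 to 0.03.

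The 2 vehicles, which show how far the batches differ without extract, gave 0 members past the threshold and 0% of all genes by edgeR, with 371 of 13001 genes at an unadjusted p under 0.05 and 3 called by DESeq2. TXNIP differed by 0.07 ± 0.076 on the log2 scale (interval -0.10 to 0.24). The widest gap was in ARRDC2, with 9.14, 7.16 and 7.36 CPM in vehicle A and 6.19, 5.93 and 6.03 in vehicle B. It came to -0.38 ± 0.11 with an unadjusted p of 0.00654 by edgeR, adjusted p = 1 (and 0.0359 with replicate number as a block). ARRDC1 was also lower in vehicle B, at 13.1 ± 0.74 against 14.86 ± 0.227 CPM, without overlap between the vehicles (-0.18 ± 0.067, interval -0.33 to -0.03, edgeR, unadjusted p = 0.0207, adjusted p = 1).

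Among the genes whose levels ran most like TXNIP across the 12 libraries of a batch were, by the lower of the 2 within-batch Pearson correlations of log2 CPM, ARRDC4 (0.992), UAP1 (0.992), VLDLR (0.992) and RGMB (0.992). UAP1 encodes an enzyme of UDP-N-acetylglucosamine synthesis and VLDLR the very low density lipoprotein receptor. UAP1 went from 105 to 270 CPM with high-dose WESF and from 103 to 203 with high-dose EESF, and VLDLR from 28.9 to 78.8 and from 28.6 to 52.9. For ARRDC4 the list was led by TXNIP (0.992), followed by HSP90B1, UAP1, DUSP1 and FAM167A (0.989 to 0.990). These correlations are dominated by the step to the high dose, and 1138 of 13515 genes exceeded 0.9 with TXNIP in both batches. Without the high-dose libraries TXNIP and ARRDC4 correlated at 0.869 in batch A and 0.675 in batch B over 9 libraries each, TXNIP and ARRDC1 at 0.313 and 0.704, and TXNIP and MLX at 0.191 and 0.406. TXNIP and ARRDC3 then correlated at -0.803 and -0.309, TXNIP and MLXIP at -0.227 and -0.328, and TXNIP and ARRDC2 at -0.008 and 0.005. All points share libraries and their scaling, and no test was made.

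Genes of the pathways around TXNIP were counted in 9 lists with 95 genes in all, written with earlier results of these data known. A DEG was a gene with an adjusted p under 0.05 and a change beyond 1.5-fold. At the high dose of WESF 11 list genes were higher and 8 lower of 81 tested, where 11.1% of all genes were higher and 13.0% lower. At the high dose of EESF 6 were higher and 8 lower of 80 tested, where 8.21% were higher and 9.17% lower. By the adjusted p alone, 34 list genes rose and 26 fell with high-dose WESF, where 34.3% of all genes rose and 34.6% fell, and 21 rose and 25 fell with high-dose EESF, where 29.3% rose and 28.7% fell. Some genes called here passed the filter on low counts only through 1 of the groups compared, MLXIPL at both doses and NLRP3 and PYCARD with WESF. KHK and ARRB1 with WESF and PYCARD with EESF, tested but not called, also missed the filter's level in some libraries of 1 group. Taken as a whole the lists were thus near the background, with a median log2 change of 0.06 and -0.01 against 0.00 and 0.01 over all genes tested.

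**Figure D5:**
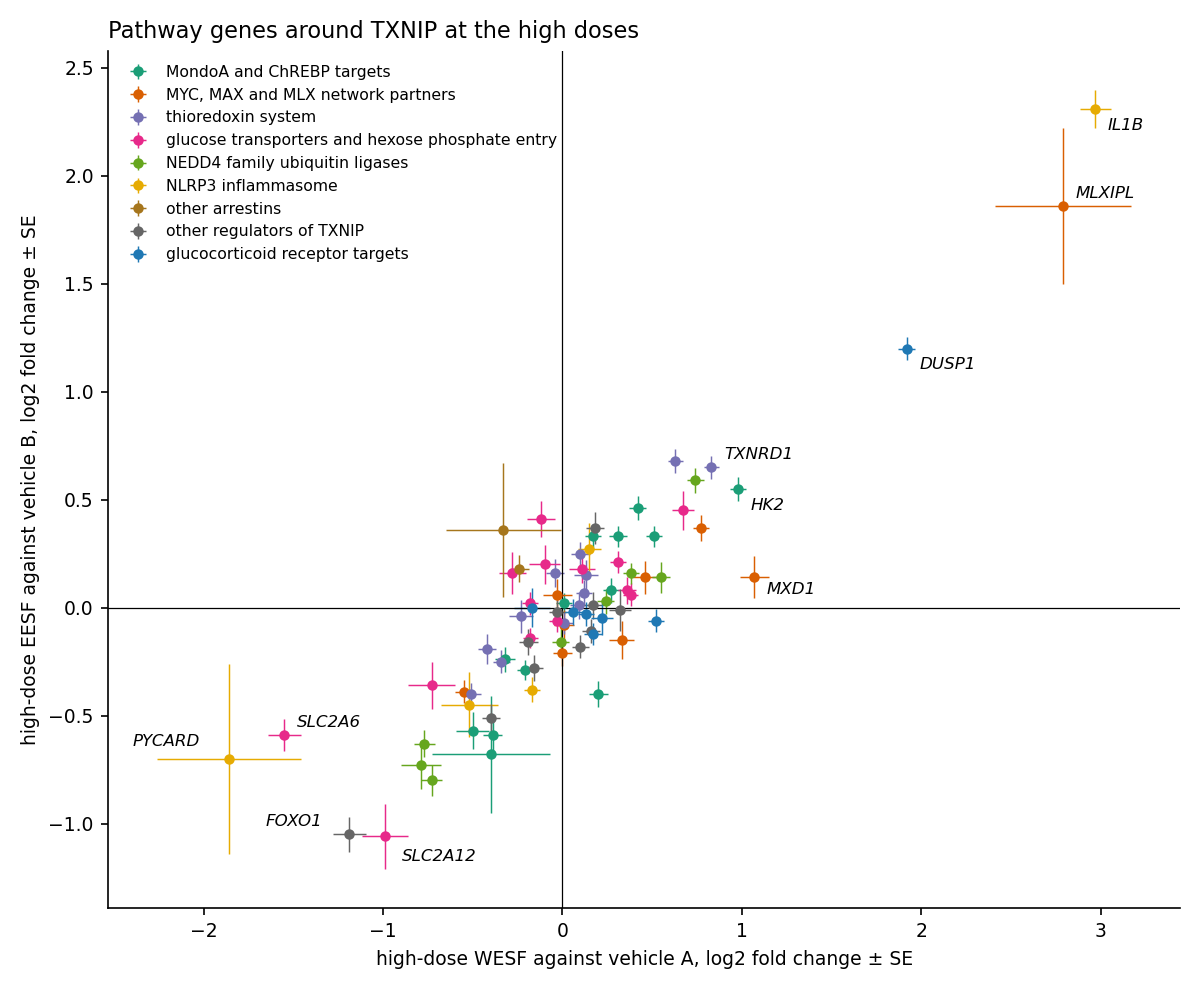
Log2 fold change at the high dose of WESF (x axis) and of EESF (y axis) of the 80 pathway genes tested at both doses, coloured by list, with SE bars from edgeR. The batches share no library. IL1B and DUSP1 lie far in the upper right, as does MLXIPL, which passed the filter only through the high-dose libraries. Most other genes lie within 1 of 0 on both axes.

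Other known targets of MondoA and its liver counterpart ChREBP were tested, 13 in all. At the high dose of WESF 7 rose and 4 fell (all genes 34.3% and 34.6%). Of the 13, 1 was a DEG, which was higher, where 11.1% of all genes were higher DEGs and 13.0% lower ones. With EESF 5 rose and 6 fell (all genes 29.3% and 28.7%). There 2 were DEGs, each lower, where 8.21% of all genes were higher DEGs and 9.17% lower ones. The median changes were 0.17 and 0.02. The DEG with WESF was HK2, hexokinase 2, which makes the glucose 6-phosphate that MondoA responds to. HK2 went from 56.9 ± 0.699 to 112.6 ± 3.42 CPM (0.98 ± 0.045 on the log2 scale, adjusted p = 7.58e-12 by edgeR) and rose by 0.55 ± 0.055 with EESF (edgeR, adjusted p = 4.42e-06). At the low dose of EESF it went the other way, from 56.05 ± 2.32 to 48.75 ± 2.68 CPM without overlap (-0.21 ± 0.054, edgeR, adjusted p = 0.0259), a call lost without vehicle B replicate 2 or 3 or EESF low replicate 1 or 2. The DEGs with EESF were ACACA, acetyl-CoA carboxylase, which fell by 0.59 ± 0.078 (by 0.54 without vehicle B replicate 3 and 0.52 without EESF high replicate 3, inside 1.5-fold), and KHK, ketohexokinase, which had under 1 CPM in every group (-0.68 ± 0.27, edgeR, adjusted p = 0.0487) and whose call was lost under most alternatives. PFKFB3, a target in other cells that was looked up after its values were seen, held 91.2 and 91.6 CPM with WESF and 88.5 and 89.9 with EESF.

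Of 9 partners tested in the MAX and MLX network, MLXIPL, which encodes ChREBP, passed the expression filter only through the high-dose libraries and is left out of the counts. Of the other 8, 4 rose and 1 fell with high-dose WESF (median 0.17, against 34.3% and 34.6% of all genes), and 1 rose and 2 fell with EESF (median -0.01, against 29.3% and 28.7%). MLXIPL was very low throughout. It had 4, 6 and 2 expected counts in the libraries of vehicle A and 27, 25 and 19 with WESF, and 8, 3 and 4 in vehicle B against 24, 28 and 35 with EESF. In batch B the high-dose libraries were deeper, with totals of 29659110 to 32567395 expected counts against 18727797 to 20465712 in the vehicle. Scaled to library size, MLXIPL went from 0.147 ± 0.0696 to 1.07 ± 0.21 CPM with WESF. With EESF it went from 0.263 ± 0.134 to 0.969 ± 0.17 CPM (SD, n = 3). The high-dose libraries lay above those of their vehicle in both batches, also after scaling. A gene let in by the group where it is high had to differ, so the filtered test is not given. With no filter, the edgeR fit gave 2.79 ± 0.41 and 1.85 ± 0.38 (adjusted p = 1.03e-06 and 0.000578). MYC, which competes with MondoA in metabolic control, rose from 64.3 ± 1.58 to 109.6 ± 2.68 CPM with WESF (0.77 ± 0.045) and by 0.37 ± 0.061 with EESF. MAX, the partner of MYC, fell by 0.55 ± 0.05 and by 0.39 ± 0.054. MXD1, a repressor that pairs with MAX, rose by 1.07 ± 0.082 with WESF (edgeR, adjusted p = 5.09e-09), while its change with EESF was 0.14 ± 0.097 (edgeR, adjusted p = 0.232). Whether MXD1 differed between the extracts was not tested there.

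TXNIP binds thioredoxin, and 12 genes of the thioredoxin system were tested. Of these, 3 rose and 4 fell with high-dose WESF (median 0.05), and 4 rose and 3 fell with EESF (median 0.04). These counts were near the shares of all genes (34.3% and 34.6% with WESF, 29.3% and 28.7% with EESF). Thioredoxin itself did not pass the test. TXN held 157.9 ± 17.4 CPM in vehicle A and 172.4 ± 11 at the high dose of WESF (0.13 ± 0.066, edgeR, adjusted p = 0.096), and 147.6 ± 17.7 and 164.2 ± 1.92 CPM in batch B (0.15 ± 0.071, adjusted p = 0.0821). It passed the threshold without vehicle A replicate 1 or WESF high replicate 2 in batch A and without vehicle B replicate 1 in batch B. TXNRD1, the cytosolic thioredoxin reductase, rose from 282 ± 0.909 to 501 ± 15.1 CPM with WESF (0.83 ± 0.042) and from 274 ± 2.55 to 431 ± 26.4 with EESF (0.65 ± 0.054). SRXN1, sulfiredoxin, which repairs overoxidized peroxiredoxins, rose by 0.63 ± 0.044 and 0.68 ± 0.057. These 2 were the DEGs of the list at either high dose, where 11.1% and 8.21% of all genes were higher DEGs. TXNL1, a thioredoxin-like protein of the proteasome, fell by 0.51 ± 0.054 and 0.40 ± 0.051.

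Of the glucose transporters and the enzymes of hexose phosphate entry, 15 were tested, of which 5 rose and 6 fell with high-dose WESF (median -0.10) and 5 rose and 4 fell with EESF (median 0.08), again near the 34.3% and 34.6% of all genes with WESF and the 29.3% and 28.7% with EESF. SLC2A1 (GLUT1), which TXNIP removes from the cell surface, rose by 0.38 ± 0.043 on the log2 scale at the high dose of WESF (194 ± 7.04 to 252 ± 6.6 CPM), and with EESF held 201 ± 10.3 and 210 ± 5.74 CPM (0.06 ± 0.052, edgeR, adjusted p = 0.315). SLC2A6 fell by 1.55 ± 0.091 with WESF and by 0.59 ± 0.076 with EESF, and SLC2A12 fell by 0.99 ± 0.13 and by 1.06 ± 0.15. With WESF the list had 2 DEGs that were higher, HK2 and SLC2A10, where 11.1% of all genes were. Lower were 3, SLC2A6, SLC2A12 and the galactose mutarotase GALM, where 13.0% of all genes were. With EESF 0 were higher and 2 were lower, again SLC2A6 and SLC2A12 (all genes 8.21% and 9.17%). Of these, SLC2A6 was inside 1.5-fold without vehicle B replicate 1 (-0.53) or EESF high replicate 1 (-0.57). SLC2A10 and GALM were named after their values were seen. GALT, which carries galactose into hexose phosphates and was also named afterwards, rose at the medium (0.50 ± 0.081) and low (0.36 ± 0.08) dose of EESF, and the low-dose call was lost on leaving out any library but vehicle B replicate 1.

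Of 8 ligases of the NEDD4 family tested, which alpha-arrestins recruit, 4 rose and 3 fell with high-dose WESF (median 0.12, all genes 34.3% and 34.6%), and 2 rose and 3 fell with EESF (median -0.06, all genes 29.3% and 28.7%). NEDD4 fell by 0.73 ± 0.061 with WESF and by 0.80 ± 0.073 with EESF, WWP2 by 0.77 ± 0.058 and 0.63 ± 0.063 and HECW2 by 0.79 ± 0.11 and 0.73 ± 0.11. SMURF2, named after its values were seen, was the DEG of the list that rose, where 11.1% and 8.21% of all genes were higher DEGs. SMURF2 rose by 0.74 ± 0.048 and 0.59 ± 0.057. With EESF it was inside 1.5-fold with all genes of the table, with thinned counts and without vehicle B replicate 1 or 2 or EESF high replicate 3, at 0.55 to 0.58. ITCH, the ligase that degrades TXNIP, rose by 0.55 ± 0.052 with WESF (92.8 ± 6.7 to 136 ± 0.756 CPM) and with EESF held 92.6 ± 6.77 and 102 ± 7.88 CPM (0.14 ± 0.07, edgeR, adjusted p = 0.109). All values are on the log2 scale unless given as CPM.

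TXNIP is also known to bind NLRP3, the sensor of an inflammasome. Of 6 inflammasome genes tested with high-dose WESF, NLRP3 and PYCARD did not reach the filter's level in all libraries of both groups, and of the other 4 1 rose and 2 fell (median -0.01, all genes 34.3% and 34.6%). Of 5 tested with EESF, PYCARD again did not reach it, and of the other 4 1 rose and 2 fell (median -0.05, all genes 29.3% and 28.7%). NLRP3 was near the limit of the measurement, with 3, 13 and 7 expected counts in vehicle A and 17, 18 and 19 at the high dose of WESF. In batch B it had 8, 4 and 6 in the vehicle and 11, 13 and 13 in the deeper libraries at the high dose of EESF. Scaled to library size, NLRP3 held 0.284 ± 0.18 and 0.813 ± 0.0852 CPM in batch A. In batch B it held 0.317 ± 0.105 and 0.412 ± 0.0218 CPM (SD, n = 3). It passed the filter only with WESF, through the high-dose libraries, and the edgeR fit with no filter gave 1.48 ± 0.4 (adjusted p = 0.00244). IL1B, interleukin 1 beta, rose from 3.39 ± 0.438 to 26.6 ± 0.722 CPM with WESF (2.97 ± 0.087) and from 4.18 ± 0.412 to 20.7 ± 0.518 CPM with EESF (2.31 ± 0.089). It also rose at the medium doses, by 0.53 ± 0.13 (edgeR, adjusted p = 0.0395) and 0.47 ± 0.13 (0.0224), and both calls were lost with DESeq2's test. The first was also lost with replicate number as a block (adjusted p = 0.0857) and with all genes of the table. Omitting vehicle A replicate 2 or any WESF medium library ended the first, and omitting vehicle B replicate 2 or 3 or EESF medium replicate 2 the second. The adaptor PYCARD was also low, with 21, 13.85 and 23 expected counts in vehicle A and 5, 5 and 2.7 at the high dose of WESF (0.725 ± 0.199 and 0.197 ± 0.059 CPM). It passed the filter there only through the vehicle, and the edgeR fit with no filter gave -1.87 ± 0.44 (adjusted p = 0.000566). Markers of immune cells were measured beside IL1B. CD68, the most abundant of 3, rose by 0.29 ± 0.052 and 0.43 ± 0.054 at the high doses, from 181.2 ± 4.94 to 222 ± 16 CPM and from 200.7 ± 11.3 to 269.9 ± 4.87 CPM. PTPRC, which defines leukocytes, fell by 2.26 ± 0.12 and by 2.38 ± 0.14, and CD3E had at most 1 expected count in a library. The 3 summed to 186.1, 197.1 and 191 CPM in vehicle A and to 238.3, 206.8 and 228.3 CPM at the high dose of WESF. In batch B they summed to 198.4, 222.3 and 210.7 CPM and to 273.2, 266.6 and 275.5 CPM. Their part in the result was not tested.

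Of 10 regulators of TXNIP other than MondoA, 4 rose and 4 fell with high-dose WESF (median 0.03), near the 34.3% and 34.6% of all genes, and 1 rose and 5 fell with EESF (median -0.13, all genes 29.3% and 28.7%). FOXO1 fell from 15.8 ± 1.07 to 6.87 ± 0.78 CPM with WESF (-1.19 ± 0.092 on the log2 scale). With EESF it fell from 15.5 ± 0.464 to 7.47 ± 0.416 CPM (-1.05 ± 0.08). It was the DEG of that list with either extract, where 13.0% and 9.17% of all genes were lower DEGs. NR3C1, the glucocorticoid receptor, fell by 0.40 ± 0.05 and by 0.51 ± 0.065, and HSF1, the heat shock factor, rose by 0.18 ± 0.051 and 0.37 ± 0.075. Of 7 glucocorticoid targets tested, 5 rose with WESF, where 34.3% of all genes did, and 1 with EESF, where 29.3% did. The difference between the extracts was not tested. DUSP1, a phosphatase of MAP kinases, was the DEG among them, where 11.1% and 8.21% of all genes were higher DEGs. DUSP1 held 41.1 ± 1.81 and 155 ± 1.96 CPM in batch A (1.92 ± 0.047) and 41.2 ± 1.1 and 94.8 ± 2.33 in batch B (1.2 ± 0.053). ERRFI1 rose by 0.52 ± 0.045 with WESF and TSC22D3 by 0.22 ± 0.062, and neither passed the test with EESF (-0.06 ± 0.053 and -0.05 ± 0.078). Of the beta-arrestins, ARRB2 fell by 0.24 ± 0.053 with WESF and rose by 0.18 ± 0.063 with EESF (edgeR, adjusted p = 0.0285), the latter lost with DESeq2's test, with replicate number as a block and without vehicle B replicate 2 or 3 or EESF high replicate 3. ARRB1 had under 1 CPM in every group, with changes of -0.33 ± 0.32 and 0.36 ± 0.31.

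At the medium dose of WESF 6 of the 81 list genes tested rose, where 1.89% of all genes did, and 4 fell, where 2.20% did. Leaving out 1 library at a time gave 1 to 9 that rose and 0 to 8 that fell. Without vehicle A replicate 2 or WESF medium replicate 2 or 3, DUSP1 was the 1 of these list genes that passed in either direction, and with replicate number as a block 1 rose (DUSP1) and 1 fell (SCD). Among those that rose were HK2 (0.20 ± 0.043, edgeR, adjusted p = 0.0191), TXNRD1 (0.16 ± 0.038, adjusted p = 0.0368) and DUSP1 (0.32 ± 0.048, adjusted p = 0.00357), and the call of DUSP1 held under all 13 alternatives. The call of HK2 was lost with replicate number as a block (adjusted p = 0.0788) and without vehicle A replicate 2 or WESF medium replicate 2 or 3, and that of TXNRD1 with the block (0.134) and without any library but vehicle A replicate 1. Named after their values were seen, TKT (adjusted p = 0.125), SRXN1 (0.126), TXNL1 (0.137) and VDR (0.0963) also lost their edgeR calls with the block, and SCD kept its call there (0.0301) but lost it without the same 3 libraries as HK2. With EESF 6 rose and 11 fell of 80, where 6.90% of all genes rose and 8.48% fell, and the omission of single libraries gave 2 to 10 and 4 to 15, with the lowest of both without vehicle B replicate 2. MYC fell there by 0.19 ± 0.049 at the medium and by 0.36 ± 0.046 at the low dose of EESF (edgeR, adjusted p = 0.015 and 0.00131), the former lost without vehicle B replicate 2 or EESF medium replicate 3, against changes of 0.16 ± 0.045 and -0.03 ± 0.05 with WESF. FOXO1 fell at both medium doses, by 0.28 ± 0.075 (edgeR, adjusted p = 0.0491) and 0.30 ± 0.075 (0.0145). The WESF call was lost with DESeq2's test (adjusted p = 0.103), with the block (0.115) and without any library but vehicle A replicate 1, and the EESF call without vehicle B replicate 2 or EESF medium replicate 2. At the low dose of WESF 0 of 82 list genes passed the test, and at that of EESF 2 rose (GALT and MID1IP1) and 6 fell of 80, where 3.11% of all genes rose and 6.24% fell. Without any library but vehicle B replicate 1, 0 rose, and both GALT and MID1IP1 (named after its values were seen) lost their calls, while 2 to 4 fell. With vehicle B replicate 1 left out 8 rose and 13 fell, and with replicate number as a block 3 and 11. MYC and MGA, the latter also named afterwards, fell in every one of these omissions.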

How the data were processed

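The authors trimmed reads with Trim Galore 0.6.6, aligned them with STAR 2.7.9a, counted them with RSEM 1.3.3 (annotation GRCh38.84) and deposited expected counts per gene, neither normalized nor filtered. RSEM divides ambiguous reads between genes, and 10.9% of values were not whole. The strand setting is not given in the sources used here.

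After rounding of the counts, the protein-coding genes (GENCODE 44) that passed filterByExpr were tested with edgeR 4.0.16 in R 4.3.3 (TMM, quasi-likelihood test, 2-sided, Benjamini-Hochberg over all genes tested). Each dose was fitted with the vehicle of its batch (6 libraries) and differences between extracts on 12 libraries. All 7 members passed the filter in each of the 9 comparisons. CPM used TMM factors over the 24 libraries and refer to protein-coding genes kept, and log2 CPM a prior count of 2. DESeq2 1.42.0, other scaling and filters, thinned counts, a replicate block and omission of single libraries were alternatives. Promoters were the 250 bases before RefSeq starts.

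Between replicates, chi-square per degree of freedom was 2.74 to 9.2, above sampling noise, so that the number of libraries limits precision. Members and lists were chosen with earlier results of these data known. Named list genes were 10 given in advance (SLC2A1, TXN, TXNRD1, ITCH, NLRP3, MLXIPL, MYC, MAX, ARRB1 and NR3C1) and up to 3 per list with the largest change at either high dose. Genes most like TXNIP or ARRDC4 were the 5 with the highest lower correlation of the 2 batches. 1 of those for TXNIP is not reported here.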

Additional observations from a re-analysis of the deposited data

Results flagged for a closer look

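The difference between the extracts at the medium dose was flagged for 2 genes, because the test of the difference itself passed the threshold. For TXNIP the change with EESF minus that with WESF was -0.83 ± 0.12 on the log2 scale (edgeR, adjusted p = 0.00799), with 3 of 3 libraries above the vehicle at both medium doses, and the call was lost with replicate number as a block (adjusted p = 0.0567) and without vehicle B replicate 2 (0.0532). For MYC it was -0.36 ± 0.062 (edgeR, adjusted p = 0.036), and this call was lost with replicate number as a block and in 8 of the 12 omissions of a single library. The doses are not matched, and extract and batch cannot be told apart. Groups of 3 libraries were too small for a test of single outlying libraries.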

How the results depend on the processing

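The log2 change of TXNIP at the high dose kept between 5.12 and 5.16 with WESF and between 4.77 and 4.85 with EESF over 13 alternatives each. Leaving out each library in turn gave 1 to 3 members past the threshold at the medium dose of WESF, 2 to 4 at that of EESF, 0 to 2 at the low dose of EESF and 0 to 1 for the difference between the extracts at the medium dose (0 without vehicle B replicate 2). Correlations between same-numbered libraries were weak: of 21 such pairs, which reuse the vehicle libraries, 1 had a correlation of deviations above 0.1 (range -0.077 to 0.13). Between the vehicles the same-numbered pairs gave 0.13, 0.03 and 0.042, and the other pairs -0.11 to 0.068. Whether replicate numbers pair the libraries was not tested. With replicate number as a block, 2 members passed in place of 3 at the medium dose of WESF, 1 in place of 0 at the low dose of EESF and between the vehicles, and 0 in place of 1 for the medium-dose difference. The causes were not tested. DESeq2 gave TXNIP no adjusted p for that difference (unadjusted p = 1.39e-08), so its count is left out.

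Reversed signs concerned changes of at most 0.11 that had not passed. In the fit of all groups MLX at the low dose of WESF went from 0.01 to -0.00. With single libraries left out, ARRDC1, ARRDC2 and MLXIP at the medium dose of WESF ranged from -0.06 to 0.07, from -0.17 to 0.01 and from -0.03 to 0.01, and MLX at the low dose from -0.04 to 0.05. ARRDC2 at the medium dose of EESF ranged from -0.00 to 0.19, ARRDC4 at the low dose from -0.13 to 0.05, and ARRDC3 and MLXIP between the vehicles from -0.04 to 0.05 and from -0.00 to 0.05. The 5 genes most like TXNIP shared 1 with those by Spearman correlation and 2 with those found without the high-dose libraries, and for ARRDC4 0 and 1. Transcript length moved the level per length of 6 members.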
